A study of Mus musculus with 21 samples.

Results

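Kdm5b was knocked down in an established line of mouse acute myeloid leukaemia cells that carries a flag-tagged NUP98-NSD1 fusion, which joins a nuclear pore protein to a histone methyltransferase. The comparison covered 6 of the 21 libraries of the series, chosen by their labels, and all 15623 genes of their table. In 3 libraries the cells had received a pLKO.1-puro lentivirus with a hairpin RNA against Kdm5b (shKdm5b), and in the other 3 the same virus without an insert (shEV). Both groups were selected with puromycin and grown in serum with stem cell factor. The labels do not say how many hairpins were used and name no non-targeting one, so the loss of Kdm5b and other effects of a hairpin cannot be told apart. They do not say whether replicates were separate cultures, and the p-values then measure only the spread between these libraries, which may be technical. For comparison, MLL-AF9 leukaemia cells with an MSCV-neo retrovirus held wild-type Kdm5b (WT), its demethylase-dead mutant H499A or no insert (EV; 2 libraries each). NUP98-NSD1 cells without a vector were given UNC1999 or JQEZ5, which both inhibit PRC2, the complex that methylates lysine 27 of histone H3, or DMSO. Inhibitors were used at 3 µM and for 4 days, with 3 libraries in each of the 3 groups.

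Kdm5b is a demethylase that removes methyl groups from lysine 4 of histone H3, a mark found at the promoters of active genes, and it is best known as a repressor that works with other chromatin complexes. NUP98 fusions keep blood progenitors dividing with high levels of the Hoxa genes and the cofactor Meis1. The cells resemble early myeloid cells, which make the granule proteins of neutrophils and can take up monocyte genes.

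The markers of that state were present in both groups. Mpo, the peroxidase of primary granules, lay at 235696 to 279491 normalised read counts with shKdm5b and at 283629 to 290351 with shEV. Hoxa9 averaged 6588 ± 243 with shKdm5b and 6113 ± 43.3 with shEV (SD, n = 3 each), and the stem cell factor receptor Kit lay at 7916 to 10060 with shKdm5b and 8557 to 8946 with shEV. Cd34 was low, at 9.56 to 21.1 normalised counts with shKdm5b and 24.5 to 29.6 with shEV. Libraries held 21.3 to 29.6 M counted reads with shKdm5b and 31.3 to 34.8 M with shEV. The shKdm5b libraries agreed less well with each other than the shEV libraries did, and replicate 1 of shKdm5b stood apart. The chi-square of its counts against those of replicates 2 and 3, divided by its degrees of freedom, was 18.3 and 17.0, that of replicate 2 against 3 was 6.75, and shEV pairs gave 2.19 to 2.74, where 1 is the value for pure counting error. Lars2 and Mir6236, which collect reads of ribosomal RNA in mouse libraries, were higher in every shKdm5b library, at 775 to 1083 and 97.2 to 137 reads for each 1 M counted (RPM), against 305 to 326 and 40.9 to 49.5 RPM in shEV libraries. The same held for 5 pseudogenes that are copies of mitochondrial genes, Gm29216, Gm28661, Gm28437 and Gm10925 on chromosome 1 and Gm13340 on chromosome 2. They took 2.24% to 2.43% of the reads with shKdm5b and 1.36% to 1.42% with shEV, and were singled out after their values were seen. The part of these differences in the results was not tested.

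The targeted gene was low in both groups and lower with the hairpin. Kdm5b (ENSMUSG00000042207.17, mm10 chr1:134560171-134635285, plus strand) had 34, 28 and 17 reads in shKdm5b libraries 1 to 3, against 71, 112 and 71 reads in the shEV libraries. In normalised counts these were 34.1, 28.8 and 23.2 with shKdm5b and 61.6, 94.8 and 67.0 with shEV. The groups did not overlap, and the mean with shKdm5b (28.7 ± 5.44) was 0.385 of that with shEV (74.5 ± 17.8; SD, n = 3 each). Kdm5b lay under the minimum level for testing, so its difference was read from a fit of all 15623 genes, where it fell by 0.34 on the log2 scale of the deposited values (limma adjusted p = 0.00401). An exact two-sided permutation test of the 6 values gave p = 0.1, the smallest that 3 against 3 libraries allow. Scaled to depth, Kdm5b stood at 0.979 ± 0.176 RPM with shKdm5b and 2.52 ± 0.607 RPM with shEV. The other NUP98-NSD1 libraries, normalised in a separate table, held 40.1 ± 1.05 RPM in DMSO (n = 3), above both groups of the knockdown.

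Many genes moved by a little and few by much. Of 10810 genes high enough to test, limma called 3509 (32.5%) at an adjusted p under 0.05, 1624 of them higher with shKdm5b (15%) and 1885 lower (17.4%). Among called genes the median absolute log2 difference was 0.23. At least 2-fold changes in normalised counts were seen for 103 called genes that were higher with shKdm5b (0.953% of tested genes) and 80 that were lower (0.74%). The libraries did not overlap between the groups for 5296 genes (49%). The count of calls rested on single libraries: 5579 genes were called without shKdm5b replicate 1, and 1914, 2012 and 2012 without shEV replicates 1, 2 and 3. Counts given below for lists with a library left out are to be read beside these totals.

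**Figure D1:**
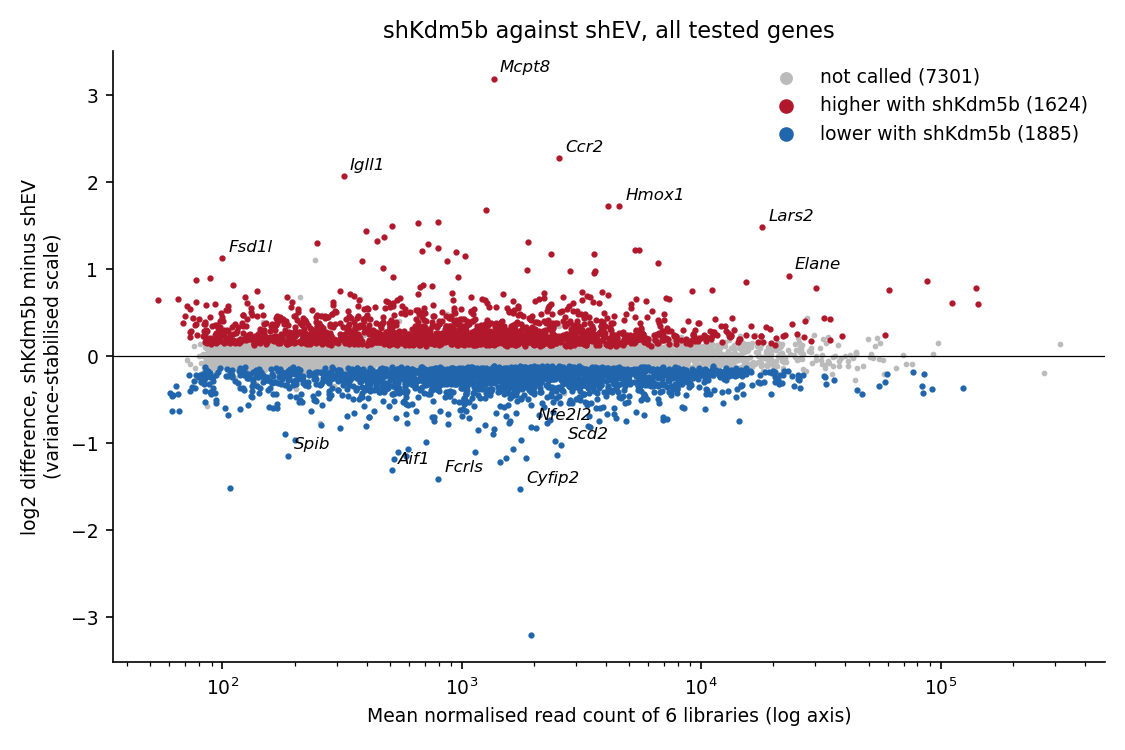
Log2 difference between shKdm5b and shEV libraries on the variance-stabilised scale (vertical axis) against the mean normalised read count of the 6 libraries on a log axis, with 1 point per tested gene. Of 10810 genes, 1624 were called higher (red) and 1885 lower (blue), and most called genes lie within 1 log2 unit of 0.

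The 15 largest rises are ranked on the deposited log2 scale, which understates low genes, so the order by ratio of normalised counts differs. Mcpt8, a serine protease known from basophils, had 2648, 2467 and 2816 normalised counts in the shKdm5b libraries, against 61.6, 77.9 and 76.5 in the shEV libraries (36.7-fold; log2 difference 3.19 ± 0.06 SE, limma adjusted p = 1.04e-08). Igll1, part of the surrogate light chain of the pre-B cell receptor, had 564, 598 and 726 with shKdm5b, against 10.4, 11.8 and 13.2 with shEV (53.2-fold; limma adjusted p = 4.11e-07). Both genes were low in every shEV library and far higher in every shKdm5b library. Ccr2, the chemokine receptor of inflammatory monocytes, stood at 3724, 4853 and 4684 with shKdm5b, against 642, 712 and 642 with shEV (6.64-fold, limma adjusted p = 9.89e-07). Spp1, which encodes osteopontin, rose 4.85-fold and the metastasis-linked calcium-binding protein gene S100a4 rose 4.98-fold. Other large rises were those of Cth, which makes cysteine from cystathionine (5.93-fold), G0s2, an inhibitor of triglyceride lipolysis (6.52-fold), Serpinf1 (5.33-fold), Tmem119 (5.24-fold), Adrbk2, a kinase of activated receptors (7.92-fold), P2rx3, an ATP-gated channel (4.73-fold), Muc13 (3.76-fold) and the linker histone gene H1f0 (2.97-fold). Lars2, named above for ribosomal RNA reads, rose 2.89-fold and also belongs to the 15 largest rises.

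The 15 largest falls on the same scale came next. Cyfip2, a subunit of the WAVE complex that drives actin branching, had 675, 742 and 825 normalised counts with shKdm5b, against 2801, 2636 and 2789 with shEV (ratio 0.273; log2 difference -1.53 ± 0.06 SE, limma adjusted p = 9.89e-07). Spib, an ETS factor of B and plasmacytoid dendritic cells, had 36.1, 50.4 and 45.1 with shKdm5b, against 303, 332 and 357 with shEV (ratio 0.133, limma adjusted p = 2.43e-06). For both genes the highest shKdm5b library lay far under the lowest shEV library. Fcrls, an Fc receptor-like gene, fell to a ratio of 0.243, Aif1, a calcium-binding protein of macrophages, to 0.221, and Slc11a1, a metal pump of phagosomes, to 0.348. Fpr1, the receptor for bacterial formyl peptides (ratio 0.406), Ltb, which encodes lymphotoxin beta (0.322), Lrp5, a Wnt co-receptor (0.289), Kctd12 (0.378), Mgst1, a membrane glutathione transferase (0.298), Ppif, the cyclophilin of the mitochondrial pore (0.367), Sar1b, a GTPase of vesicle budding (0.371), Vat1 (0.409), Wbp5 (0.270) and Scd2, a fatty acid desaturase (0.449), were the rest of the 15. On the deposited log2 scale the lowest difference of all tested genes was that of the protein-coding gene Gm364 on the X chromosome (-3.20, limma adjusted p = 9.77e-08), named after its values were seen, with 162, 178 and 142 normalised counts with shKdm5b, against 3878, 3221 and 4031 with shEV (ratio 0.0433).

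**Figure D2:**
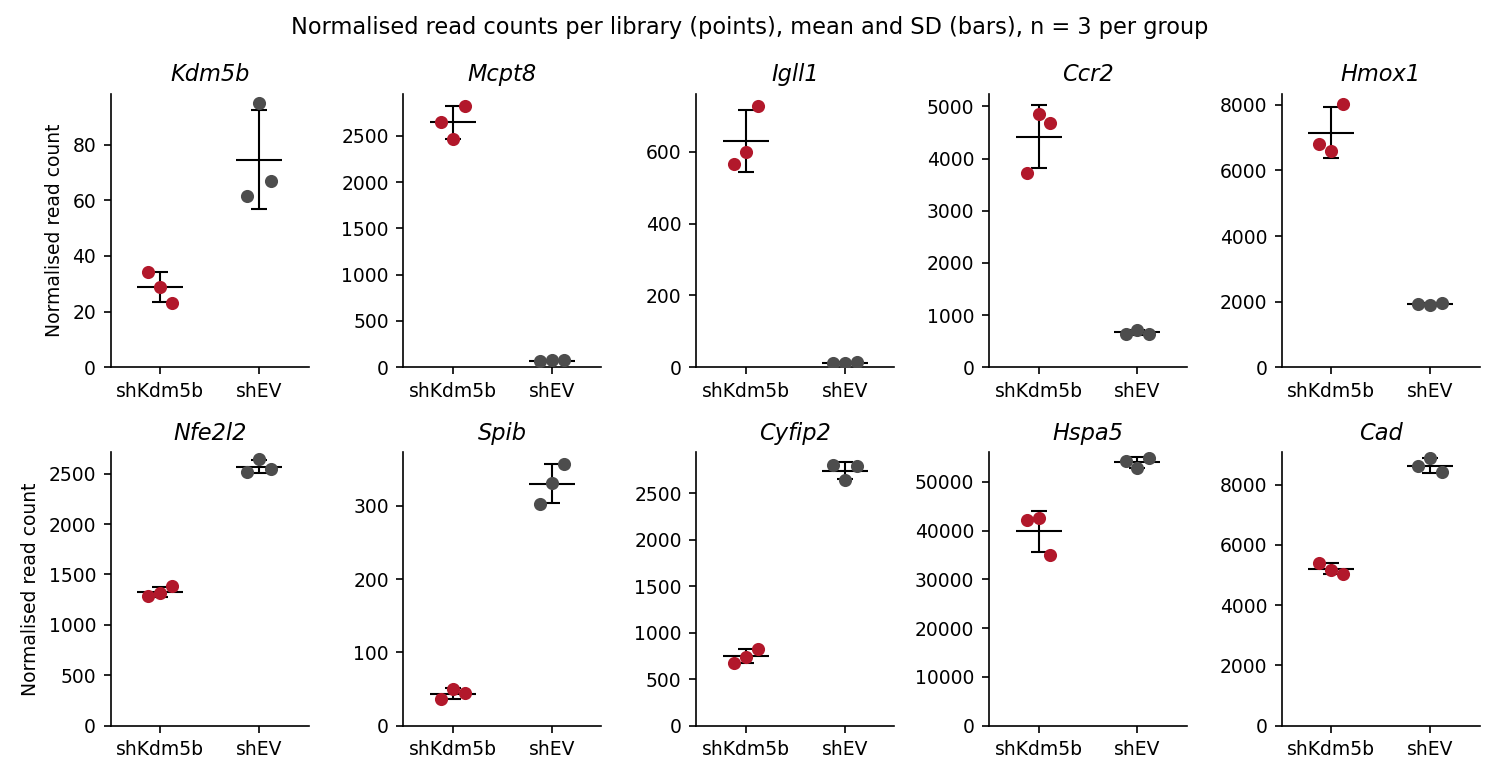
Normalised read counts (vertical axes, from 0) in the 3 shKdm5b libraries (red) and the 3 shEV libraries (grey) for 10 genes, with 1 point per library and bars for the mean and SD. In each panel the libraries of the groups do not overlap: Mcpt8, Igll1, Ccr2 and Hmox1 are higher with shKdm5b, and Kdm5b, Nfe2l2, Spib, Cyfip2, Hspa5 and Cad are lower. The largest rises and falls were chosen among called genes with no overlap, and 49% of all tested genes had none.

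Near-silent genes that became expressed were rare. Fsd1l met the rule, at most 10 normalised counts in each library of a group and at least 100 in each library of the other, with 135, 214 and 225 in the shKdm5b libraries, against 8.68, 7.62 and 9.44 in the shEV libraries. In the other direction the pseudogene Rps18-ps3 had no reads in any shKdm5b library, against 224, 146 and 272 normalised counts in the shEV libraries. A ceiling of 20 in place of 10 gave 3 genes that became expressed and a ceiling of 5 gave 0.

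Stress programmes moved in opposite directions. Cells sense lack of amino acids, haem or correct protein folding through kinases that raise the translation of ATF4, which then induces genes of amino acid supply, while misfolded protein in the endoplasmic reticulum (ER) induces chaperones through ATF6, IRE1 and XBP1. NRF2, encoded by Nfe2l2, drives genes against oxidants, and BACH1 holds down many of the same genes until haem removes it. To show the elements through which these programmes are known to act, 300 bases around the start of 4 members (250 before it and 50 after) are printed from RefSeq, build GRCm38.p6, 5′ to 3′ on the strand of the gene, with matches to the motif named for each gene in capitals and other motifs left unmarked. They are the E-box CACGTG bound by MYC and its relatives in Rrn3 (chr16:13780449-13780748, plus strand), the ATF4 element TGATGNAA, here on the reverse strand, in Nupr1 (chr7:126625421-126625720, minus strand), the ER stress element, CCAAT and CCACG with 9 bases of any kind between them, in Dnajc3 (chr14:118937682-118937981, plus strand) and the antioxidant element TGACNNNGC in Nfe2l2 (chr2:75704614-75704913, minus strand).
Rrn3: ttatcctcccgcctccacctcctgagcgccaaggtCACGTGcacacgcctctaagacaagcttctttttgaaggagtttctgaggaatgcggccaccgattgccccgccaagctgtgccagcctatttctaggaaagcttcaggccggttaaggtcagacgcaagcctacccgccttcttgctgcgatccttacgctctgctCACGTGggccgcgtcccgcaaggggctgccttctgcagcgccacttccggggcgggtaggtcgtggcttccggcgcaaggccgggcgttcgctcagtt
Nupr1: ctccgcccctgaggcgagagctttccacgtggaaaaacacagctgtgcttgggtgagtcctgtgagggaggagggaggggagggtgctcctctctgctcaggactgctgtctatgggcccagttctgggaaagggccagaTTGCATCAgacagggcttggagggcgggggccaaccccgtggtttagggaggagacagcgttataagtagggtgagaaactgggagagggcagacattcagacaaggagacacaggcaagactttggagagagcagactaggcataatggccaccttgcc
Dnajc3: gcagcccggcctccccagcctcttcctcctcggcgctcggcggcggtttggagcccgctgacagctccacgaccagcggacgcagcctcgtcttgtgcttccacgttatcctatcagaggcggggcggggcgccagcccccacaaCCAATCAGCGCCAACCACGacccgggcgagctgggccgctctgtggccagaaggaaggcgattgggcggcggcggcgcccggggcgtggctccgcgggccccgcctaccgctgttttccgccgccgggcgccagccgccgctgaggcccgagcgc
Nfe2l2: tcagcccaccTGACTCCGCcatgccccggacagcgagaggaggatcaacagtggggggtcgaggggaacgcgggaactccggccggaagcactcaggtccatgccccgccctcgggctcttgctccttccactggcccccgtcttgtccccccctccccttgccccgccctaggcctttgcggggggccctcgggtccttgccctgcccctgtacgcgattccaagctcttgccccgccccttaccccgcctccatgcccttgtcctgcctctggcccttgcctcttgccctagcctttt
Both strands were searched in the promoters of 27025 genes. The ATF4 element stood in 9 of 21 matched members of the ATF4 list (42.9%, against 4.51% of all genes) and the ER stress element in 9 of 20 of the chaperone list (45%, against 0.137%). The antioxidant element stood in 8 of 28 matched haem, iron and NRF2 genes (28.6%, against 14%), and the E-box in 12 of 56 ribosome biogenesis genes (21.4%, against 8.09%). A match describes the letters of the window and is no proof of a bound site.

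Of 21 tested genes of the ATF4 and integrated stress response, 14 were called higher with shKdm5b and 0 lower (66.7% and 0%, against 15% and 17.4% of all tested genes), with a median log2 difference of 0.23, against -0.01 over all genes. Nupr1, a stress-induced chromatin protein, had 932, 916 and 1046 normalised counts with shKdm5b, against 538, 575 and 532 with shEV (1.76-fold, limma adjusted p = 9.13e-05). Ddit4, an inhibitor of mTORC1, rose 1.74-fold, Trib3, a pseudokinase, 1.48-fold, Pck2, the mitochondrial PEP carboxykinase, 1.46-fold and Cebpg, a partner of ATF4, 1.31-fold. Atf4 itself stood at 14627, 13600 and 15078 with shKdm5b, against 12202, 12170 and 12348 with shEV (limma adjusted p = 0.00727). Ddit3, which encodes CHOP, was not called, at 422, 447 and 553 with shKdm5b and 464, 459 and 404 with shEV (limma adjusted p = 0.546). The count of 14 was 9, 10 and 8 without shEV replicates 1, 2 and 3, and 16 without shKdm5b replicate 1.

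ER chaperones went the other way: of 22 tested genes, 14 were called lower with shKdm5b and 3 higher (63.6% and 13.6%), with a median log2 difference of -0.28. Hspa5, the chief chaperone of the ER, had 42114, 42553 and 35026 normalised counts with shKdm5b, against 54258, 52846 and 54995 with shEV (limma adjusted p = 0.00284). The co-chaperone gene Dnajc3 (ratio 0.726), Hyou1, an exchange factor for HSPA5 (0.745), Creld2 (0.622) and the degradation genes Sel1l (0.774) and Syvn1 (0.768) all fell, at limma adjusted p of 0.000267 to 0.00218. Xbp1, the transcription factor of the pathway, was not called with all libraries, at 4941, 4894 and 4479 with shKdm5b and 5124, 5092 and 5220 with shEV (limma adjusted p = 0.12). The 3 higher genes were Ern1, which encodes the sensor IRE1 (1.46-fold, limma adjusted p = 0.00606), Atf6 (1.21-fold, limma adjusted p = 0.0425) and the co-chaperone gene Dnajb9 (1.24-fold, limma adjusted p = 0.0153). Atf6 lost its call without any 1 library other than shKdm5b replicate 1, and without a filter on low values, and Dnajb9 without shEV replicate 1 or 2. The count of 14 was 12, 11 and 10 without shEV replicates 1, 2 and 3, and the 3 higher genes became 1, 1 and 2. Without shKdm5b replicate 1 the 14 became 18, and calls over all genes rose too.

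Of 32 tested haem, iron and NRF2 genes, 19 were called lower with shKdm5b and 3 higher (59.4% and 9.38%; median log2 difference -0.20). Hmox1, the enzyme that breaks down haem, rose most, with 6816, 6593 and 8039 normalised counts with shKdm5b, against 1930, 1911 and 1944 with shEV (3.71-fold; limma adjusted p = 1.1e-06). Nfe2l2 had 1289, 1317 and 1384 with shKdm5b, against 2520, 2647 and 2545 with shEV (ratio 0.517, limma adjusted p = 5.35e-06). Bach1, which encodes the repressor of Hmox1, fell as well (ratio 0.741, limma adjusted p = 0.00423), as did Keap1, whose product marks NRF2 for breakdown (0.803, limma adjusted p = 0.0075). Biliverdin reductase Blvrb (ratio 0.507) and the iron importer Slc11a2 (0.559) fell as well, as did Alas1, the first and rate-limiting enzyme of haem synthesis, with 10883, 9941 and 11092 with shKdm5b, against 17966, 18156 and 17882 with shEV (limma adjusted p = 2.08e-05). Counts of lower members without 1 library ran from 14 to 20, and the 3 higher ones were 6 without shKdm5b replicate 1 and 1 without shKdm5b replicate 3 or any single shEV library.

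**Figure D3:**
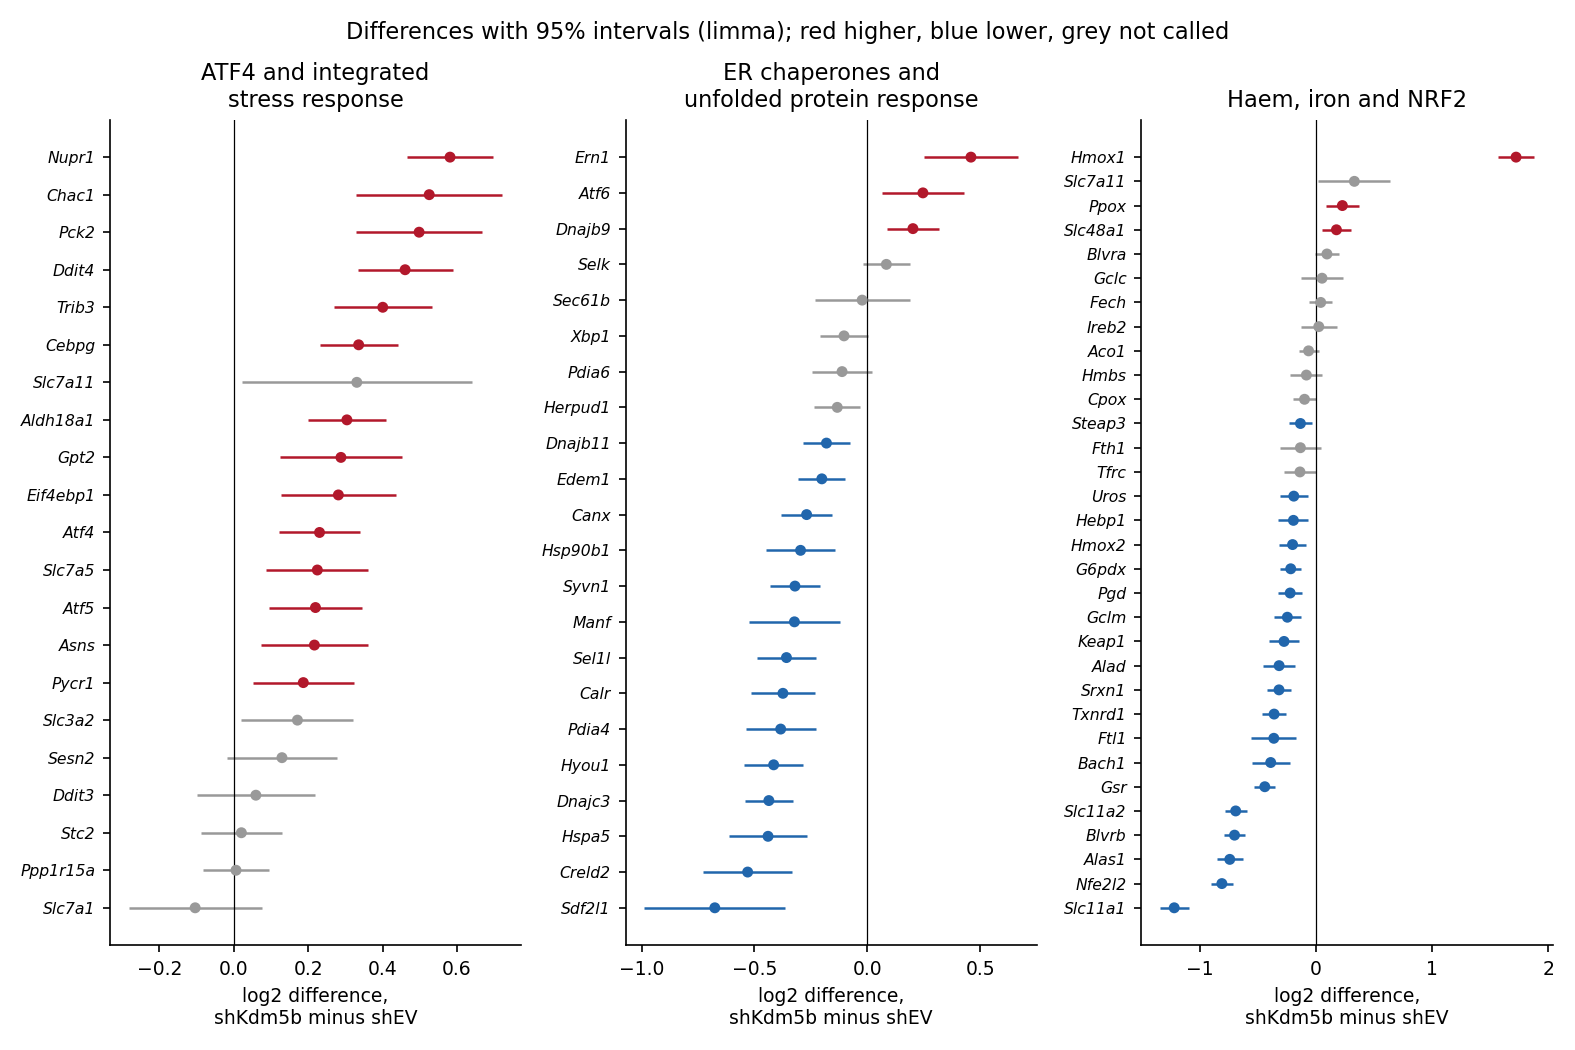
Log2 difference between shKdm5b and shEV (points) with 95% intervals from limma (lines) for every tested member of 3 lists, ordered by size; red marks genes called higher with shKdm5b, blue those called lower and grey those not called. Of the ATF4 list 14 of 21 are red, while 14 of 22 ER chaperone genes and 19 of 32 haem, iron and NRF2 genes are blue.

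Lists of ribosome, nucleotide and lipid supply held more lower than higher calls. Of 61 tested ribosome biogenesis genes, 36 were called lower and 1 higher (59% and 1.64%; median log2 difference -0.17). Rrn3, an initiation factor of RNA polymerase I, had 1390, 1485 and 1380 normalised counts with shKdm5b, against 2126, 2133 and 2132 with shEV (ratio 0.666, limma adjusted p = 6.27e-05). Polr1a, the largest subunit of that polymerase, fell to a ratio of 0.709, and the processing factors Utp20 (0.669), Rrp12 (0.744) and Mybbp1a (0.782) also fell. The count of 36 was 45 without shKdm5b replicate 1, 19, 17 and 18 without shEV replicates 1, 2 and 3, and 27 with median centring. Myc, a known driver of these genes, was not called, at 8613, 7959 and 8471 with shKdm5b and 8179, 8383 and 8150 with shEV (limma adjusted p = 0.785). The ribosomal proteins themselves were mostly not called: 3 of 42 tested were higher and 2 lower with all libraries (7.14% and 4.76%). Without shKdm5b replicate 1, where calls over all genes rose too, 23 were lower. None of the 42 was called without any single shEV library, where calls over all genes fell.

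Of 23 nucleotide synthesis genes, 9 were called lower and 1 higher (39.1% and 4.35%). Cad, which catalyses the first steps of pyrimidine synthesis, had 5402, 5151 and 5046 normalised counts with shKdm5b, against 8602, 8885 and 8403 with shEV (ratio 0.602, limma adjusted p = 1.44e-05). Impdh1, an enzyme of guanine nucleotide synthesis, fell to a ratio of 0.487, and the purine enzyme Gart to 0.787. The 9 became 6 without any single shEV library. Of 30 sterol and fatty acid synthesis genes, 11 were lower and 2 higher (36.7% and 6.67%), with Fasn, the fatty acid synthase, at 5374 ± 336 with shKdm5b and 9070 ± 331 with shEV (SD, n = 3 each; limma adjusted p = 3.27e-05). That count was 7 without shEV replicate 1, 8 and 9 without shEV replicates 2 and 3, and 15 without shKdm5b replicate 1. Of 19 glycolysis enzymes, 7 were higher and 1 lower (36.8% and 5.26%), led by Pfkp, a phosphofructokinase (1.35-fold), and Pgk1 (1.30-fold), and Hk2 was the lower one (ratio 0.856). The 7 fell to 2, 3 and 2 without shEV replicates 1, 2 and 3, and were 11 without shKdm5b replicate 3. Oxidative phosphorylation subunits were called in 5 of 45 cases, 2 higher and 3 lower (4.44% and 6.67%). Without shKdm5b replicate 1, 26 were lower, and calls over all genes rose too.

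**Figure D4:**
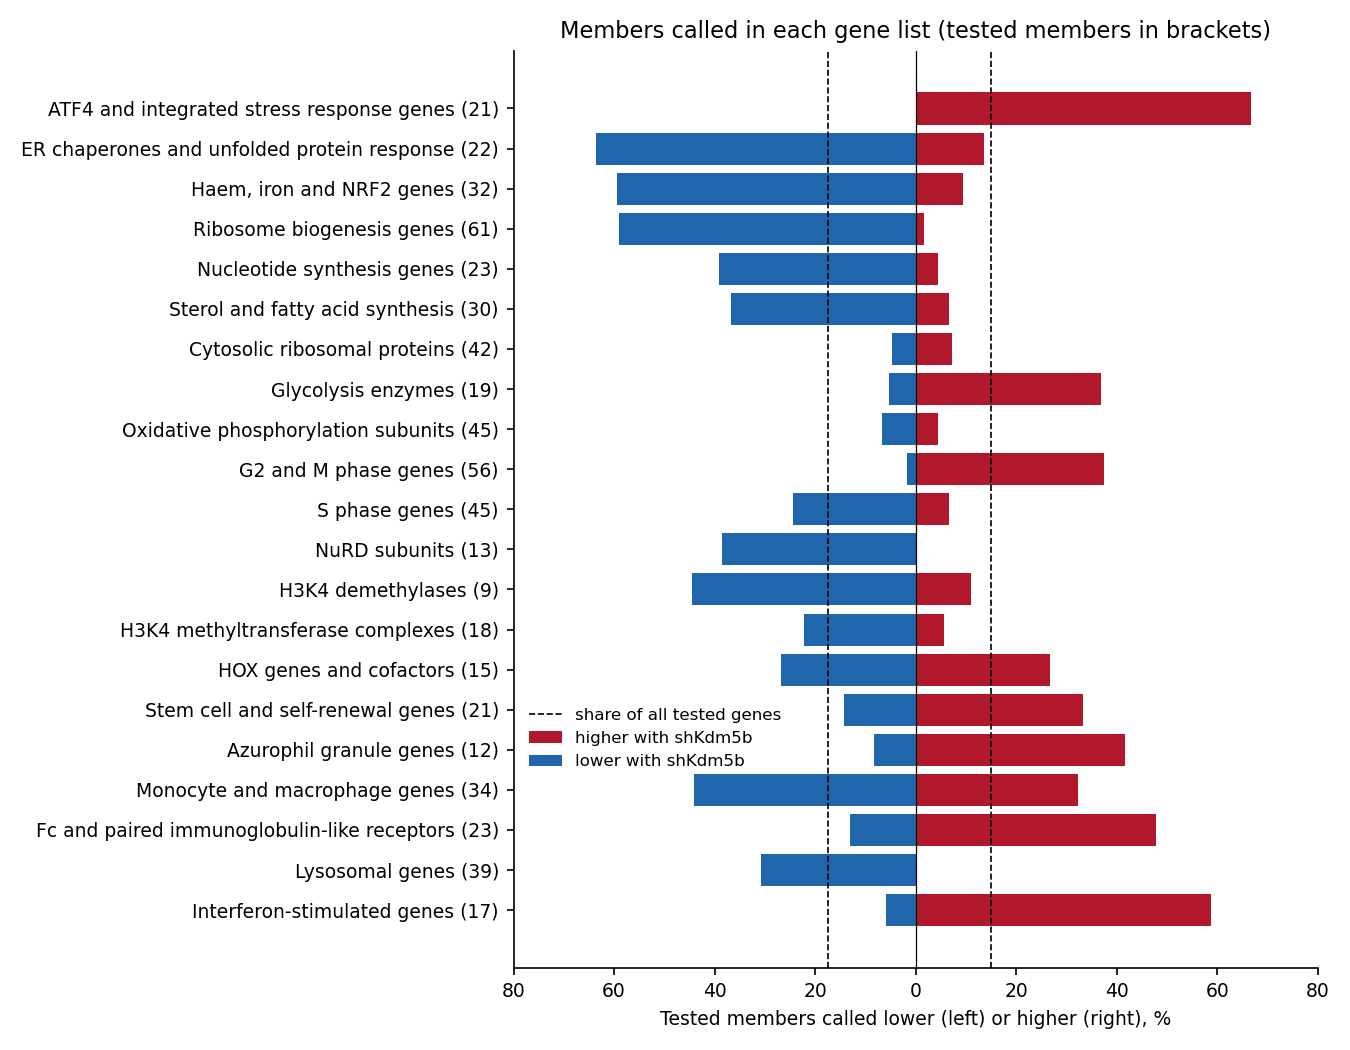
Share of tested members called higher (red, to the right) and lower (blue, to the left) with shKdm5b in 21 gene lists, with the number of tested members in brackets. Dashed lines mark the shares of all tested genes, 15% higher and 17.4% lower. The ATF4 list reaches 66.7% higher, and the ER chaperone, haem, iron and NRF2, and ribosome biogenesis lists reach 59% to 63.6% lower.

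Among cell cycle genes, most calls in the G2 and M phase list were higher. Of 56 tested G2 and M phase genes, 21 were called higher and 1 lower (37.5% and 1.79%; median log2 difference 0.11). Nusap1, a spindle protein, had 3264, 3760 and 3837 normalised counts with shKdm5b, against 2353, 2404 and 2543 with shEV (1.49-fold, limma adjusted p = 0.000434). Ckap2l (1.32-fold), cyclin B2 gene Ccnb2 (1.30-fold) and the centromeric histone gene Cenpa (1.28-fold) rose, while Espl1, the protease that parts sister chromatids, fell to a ratio of 0.788. The proliferation marker Mki67 was not called, at 15251, 19983 and 18700 with shKdm5b and 17821, 18106 and 18320 with shEV. The 21 became 36 without shKdm5b replicate 1, and 12, 11 and 14 without shEV replicates 1, 2 and 3. Of 45 S phase genes, 11 were lower and 3 higher (24.4% and 6.67%, near the 17.4% lower of all tested genes), among them the replication licensing gene Cdc6 (ratio 0.699) and Mcm4, a helicase subunit (0.866), with cyclin E2 gene Ccne2 higher (1.40-fold). The 11 became 17 without shKdm5b replicate 1, and 6, 5 and 6 without shEV replicates 1, 2 and 3. The cell cycle inhibitors Cdkn1a (1.26-fold) and Cdkn2c (1.41-fold) rose, at limma adjusted p of 0.00265 and 0.000181.

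Among chromatin complexes, subunits of NuRD, a nucleosome remodelling and deacetylase complex with which KDM5B is known to associate, were called lower in 5 of 13 cases and higher in 0 (38.5% and 0%). Chd4, its motor, had 10886, 11687 and 10728 normalised counts with shKdm5b, against 14861, 15262 and 14323 with shEV (ratio 0.749, limma adjusted p = 0.000453). Mbd3 (0.734), Mta1 (0.838) and Mta2 (0.869) fell as well. The 5 were 7 without shKdm5b replicate 1, and 4 without any single shEV library or without shKdm5b replicate 2. Of 9 tested H3K4 demethylases and partners, 4 were lower and 1 higher (44.4% and 11.1%, against 17.4% and 15% of all tested genes). However, without shEV replicates 1, 2 and 3 the 4 were 0, 0 and 1. Kdm5c (ratio 0.885) lost its call without shEV replicate 1 or 2. Kdm5b itself was too low to be among the 9. Of 18 genes of H3K4 methyltransferase complexes, 4 were lower and 1 higher (22.2% and 5.56%, near the shares of all tested genes). Kmt2d led them (0.719, limma adjusted p = 0.00163), and the 4 were 1, 1 and 3 without shEV replicates 1, 2 and 3 and 8 without shKdm5b replicate 1. Of 11 PRC2 genes, 3 were higher and 0 lower (27.3% and 0%, against 15% and 17.4% of all tested genes). The accessory subunit Jarid2 led them (1.26-fold, limma adjusted p = 0.00607). The 3 were 6 without shKdm5b replicate 1 and 2 without shEV replicate 2.

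Hox genes moved in both directions. Of 15 tested HOX genes and cofactors, 4 were higher and 4 lower (26.7% each, against 15% and 17.4% of all tested genes). Hoxa9 was not called (limma adjusted p = 0.0924). Meis1, the cofactor of HOXA9, had 802, 879 and 850 normalised counts with shKdm5b, against 1060, 1105 and 1058 with shEV (ratio 0.785, limma adjusted p = 0.00226), and Hoxa10 fell to a ratio of 0.825. The 4 higher genes were 1, 2 and 2 without shEV replicates 1, 2 and 3. Of 21 stem cell and self-renewal genes, 7 were higher and 3 lower (33.3% and 14.3%). Hmga2, a chromatin protein of fetal stem cells, rose 2.22-fold and Sox4 1.54-fold, while Erg fell to a ratio of 0.763. The 7 became 3, 6 and 3 without shEV replicates 1, 2 and 3, and 4 without shKdm5b replicate 2.

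Most lists of myeloid genes held calls in both directions. Of 12 azurophil granule genes, 5 were higher and 1 lower (41.7% and 8.33%, against 15% and 17.4% of all tested genes). Elane, neutrophil elastase, had 36262, 28221 and 27118 normalised counts with shKdm5b, against 15875, 16102 and 15426 with shEV (1.93-fold; limma adjusted p = 0.000219), and Srgn, the proteoglycan that packs granules, rose 2.18-fold. Mpo was not called with all libraries (limma adjusted p = 0.0825). The 1 lower gene of this list was Ctsg. Lower genes were 3 without shKdm5b replicate 1, where calls over all genes rose too, and 0 without any other single library. Of 10 tested genes of specific and gelatinase granules 5 were higher and 2 lower (50% and 20%), and Mmp8 rose 2.24-fold. Among myeloid transcription factors 4 of 19 were higher and 8 lower (21.1% and 42.1%, against 15% and 17.4% of all tested genes). Irf8, which directs monocytes (1.56-fold), Id2 (1.53-fold) and Cebpa (1.31-fold) rose, and Maf, a factor of macrophages (0.482), and Atf3 (0.575) fell. The 8 were 5 without shEV replicate 1, shEV replicate 2 or shKdm5b replicate 3.

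Of 34 monocyte and macrophage genes, 11 were higher and 15 lower (32.4% and 44.1%), both above the shares of all tested genes. The genes that rose include Ly6c2, the surface marker of inflammatory monocytes, with 7573, 7356 and 7723 normalised counts with shKdm5b, against 2981, 3100 and 3061 with shEV (2.48-fold, limma adjusted p = 4.11e-07), its neighbour Ly6c1 (2.46-fold) and Ccr2. Since both Ly6c genes are near-identical copies, reads may be split between them and their values are uncertain. Csf1r, the receptor that macrophages need, fell to 4769 ± 439 with shKdm5b, against 6123 ± 50.9 with shEV (SD, n = 3 each; limma adjusted p = 0.00301), and the lysosomal glycoprotein Cd68 fell to a ratio of 0.611. Of 39 lysosomal genes, 12 were lower and 0 higher (30.8% and 0%, against 17.4% and 15% of all tested genes). Among the lower ones were the cathepsin genes Ctsd (0.784) and Ctsb (0.809). The 12 lower genes were 4, 6 and 5 without shEV replicates 1, 2 and 3, and 5 genes were higher without shKdm5b replicate 1. Of 23 Fc and paired receptors, 11 were higher and 3 lower (47.8% and 13%), led by Fcgr3, an activating Fc receptor, with 1346, 1298 and 1203 with shKdm5b, against 464, 420 and 453 with shEV (2.88-fold, limma adjusted p = 2.2e-06). Of 17 interferon-stimulated genes, 10 were higher and 1 lower (58.8% and 5.88%), among them Cxcl10 (1.87-fold), Gbp2 (2.49-fold) and Ifi47 (1.46-fold). A minimum level of 2 log2 units above the lowest value, in place of 1, leaves more low members untested. With it, 3 members were called higher.

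Most lineage markers outside the myeloid series were absent or low. Of 31 basophil, mast cell and eosinophil genes, 5 were in the table and 2 were tested. The other tested one, Siglecf, was not called, at 146, 128 and 131 normalised counts with shKdm5b and 149, 102 and 144 with shEV, and Ms4a2, the beta chain of the IgE receptor, lay at 23.2 to 31.9 with shKdm5b and 17.9 to 24.5 with shEV. The summed level of the list was 2656 to 2986 with shKdm5b and 216 to 251 with shEV, nearly all of it Mcpt8. Of 22 early B lineage genes, 10 were in the table and 7 tested. Of these 7, 3 were called higher and 2 lower (42.9% and 28.6%, against 15% and 17.4% of all tested genes). Besides Igll1, the transcription factor gene Foxo1 and the B cell scaffold gene Bank1 rose, by 0.26 and 0.24 on the log2 scale, and Bank1 lost its call without shEV replicate 2. Cd79b, a chain of the B cell receptor complex, had 76.2, 60.7 and 72.4 with shKdm5b, against 337, 294 and 365 with shEV (ratio 0.210, limma adjusted p = 1.06e-05), and the IgM heavy chain gene Ighm fell to a ratio of 0.608. Vpreb1, the partner of Igll1 in the surrogate light chain, stayed low, at 4.10 to 15.0 with shKdm5b and 6.61 to 7.81 with shEV. The early B list summed to 6765 to 7813 with shKdm5b and 9003 to 9277 with shEV. In bulk RNA, a change in the share of cells of a type and a change of RNA per cell cannot be told apart.

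The reverse change of Kdm5b was available in MLL-AF9 cells, whose WT libraries held 77.1 ± 0.653 RPM of Kdm5b, against 6.49 ± 0.520 in EV (SD, n = 2 each). These libraries share none with the knockdown, but the cells, vector and table differ, and the difference between experiments was not tested. Of 9108 genes tested in both, 1318 were higher and 1675 lower with shKdm5b. Genes lower with shKdm5b were as often higher as lower with WT Kdm5b, 561 each (33.5% of the genes lower with shKdm5b, 20.7% of those higher with WT and 19.3% of those lower with WT). Of the 1318 genes higher with shKdm5b, 403 were lower with WT (30.6%, and 13.9% of those lower with WT) and 486 higher (36.9%, and 17.9% of those higher with WT). With WT, limma called 62.2% of the genes tested in that table. Over all 9108 genes 29.8% were higher and 31.8% lower with WT, and 964 genes moved in opposite and 1047 in the same direction. With H499A, which shares the EV libraries with WT, 49.6% of genes were called, and 856 moved in opposite and 783 in the same direction as with shKdm5b. Across genes the log2 differences of the experiments had a Pearson r of -0.04, with genes that are not independent replicates. Opposite changes were seen for Muc13 (log2 difference 1.73 with shKdm5b and -1.11 with WT), Lgals3 (1.29 and -1.14), Aif1 (-1.31 and 0.95), Kctd12 (-1.17 and 1.15) and Mgst1 (-1.10 and 1.21). Changes in the same direction were seen for Ccr2 (2.27 and 1.33), Hmox1 (1.72 and 0.87), Adrbk2 (1.30 and 1.01), Scd2 (-1.03 and -1.69) and Mir6236 (1.17 and 0.81). Mir6236, which collects ribosomal RNA reads, stood at 176 and 69.5 RPM in WT replicates 1 and 2. EV replicates 1 and 2 held 41.3 and 63.5 RPM, so its rise with WT rested mostly on WT replicate 1.

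Some lists had most of their calls on opposite sides in the knockdown and in the overexpression, with WT and with H499A alike. Against 14 of 22 ER chaperone genes lower with shKdm5b, 17 of 22 were called higher with WT and 2 lower. Against 19 of 32 haem, iron and NRF2 genes lower with shKdm5b, 24 of 31 were higher with WT and 4 lower, and against 12 of 39 lysosomal genes lower, 37 of 39 were higher and 1 lower. With the demethylase-dead H499A, at 15.9 RPM of Kdm5b, 15 of 22 ER chaperone genes were higher and 5 lower, 21 of 31 haem, iron and NRF2 genes were higher and 3 lower, and 32 of 39 lysosomal genes were higher and 1 lower, where 22.7% of all tested genes were higher and 26.9% lower. Background calls with WT were 29.8% higher and 32.4% lower among 9458 tested genes. Other lists moved the same way with shKdm5b and WT: 36 of 61 ribosome biogenesis genes were lower with shKdm5b and 41 of 61 with WT, and 11 of 30 sterol and fatty acid synthesis genes were lower with shKdm5b and 27 of 31 with WT. With H499A, 20 of 61 ribosome biogenesis genes were lower and 4 higher, where 26.9% of all tested genes were lower. Of the sterol and fatty acid synthesis genes, 27 of 31 were lower with H499A. Cells with UNC1999 held 56.1 ± 1.13 RPM of Kdm5b, against 40.1 ± 1.05 with DMSO (SD, n = 3 each). They had 2 of 22 ER chaperone genes higher and 13 lower, and 34 of 40 lysosomal genes higher and 2 lower. Of 33 haem, iron and NRF2 genes, 17 were higher and 8 lower. Of 10694 tested genes 47.9% were called, 23.9% higher and 24% lower. Among 10190 genes tested in both experiments, 785 moved in opposite and 1110 in the same direction as with shKdm5b. With JQEZ5, which shares the DMSO libraries, 532 moved in opposite and 485 in the same direction.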

How the data were processed

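RNA was counted in 6 libraries of 1 table, 3 with shKdm5b and 3 with shEV. Per the submitters' processing notes, the tools were STAR 2.4.2, Salmon 0.1.19 and DESeq2 1.38.2 and the builds mm10 and GRCm38.p4. Libraries came from 1 of 2 named kits per the labels' protocols, with no record of which library used which in the sources used here. The values deposited by the authors are on a log2 scale. They match a variance-stabilising transformation, with a floor at 7.43603 for genes without reads. Undoing it gave normalised counts that were whole multiples of a step for 100% of values (tolerance 0.05), and so the read counts. Levels and ratios are given in normalised counts. Differences and tests are on the deposited log2 scale, which understates changes of low genes.

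The minimum for testing was 1 log2 unit over the floor (86.6 normalised counts) in 3 libraries. Tests were run with limma 3.58.1 in R 4.3.3 (eBayes with trend), with Benjamini-Hochberg adjustment over all 10810 tested genes. Lists are described by counts and medians without a test. Members and lists were chosen with earlier results of these data known. Named genes are Kdm5b, the 15 largest rises and falls among called genes with no overlap between groups, up to 5 called members per list with the lowest adjusted p and genes that define a list, without predicted genes and pseudogenes unless stated. Coordinates are from GENCODE M21 (99.2% of tested genes matched). Other settings tried were 2 other filters on low values, quantile normalisation, median centring, robust eBayes, eBayes with no trend, voom of the recovered counts, the replicate number as a block and leaving out each library. Some genes that the rule chose are left out. In the table, 22 rows carry a date in place of a symbol.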

Additional observations from a re-analysis of the deposited data

How the results depend on the processing

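Of 201 named genes with a test, 165 kept their direction and lost no call under every alternative that could be run, and 0 reversed. Calls that a named gene gained are not in these counts. Under the filter at 2 log2 units 180 of the 201 were high enough to test. The other 36 lost their call when at least 1 library was left out, most often a shEV library, and none of the 201 did so without shKdm5b replicate 1. Leaving out 1 library each moved the number of called genes between 1914 and 5579, of higher genes between 899 and 2581 and of lower genes between 1015 and 2998, with fewer calls without any shEV library and more without shKdm5b replicate 1. Under the other alternatives the number of called genes ran from 2896 to 3684. Kdm5b kept its direction and call, with log2 differences of -0.38 to -0.28 (limma adjusted p up to 0.0184) when 1 library was left out and -1.33 with voom. A ceiling of 5 or 20 normalised counts for a near-silent gene gave 0 or 3 genes expressed with shKdm5b, against 1 at a ceiling of 10. Same-numbered libraries had deviations that correlated at 0.22, -0.10 and -0.15, which shows no steady pairing by number. The labels do not say whether libraries were paired, and these correlations cannot settle it. Replicate 2 of shKdm5b correlated best with replicate 3 of shEV (0.26) and replicate 3 of shKdm5b with replicate 2 of shEV (0.25), a pattern in the data that no label explains. With the replicate number as a block, 3491 genes were called, 1594 higher and 1897 lower, Kdm5b fell by 0.34 (adjusted p = 0.00209), and 4 of the 201 named genes lost their call. Low genes limit what can be said: 4813 genes of the table, Kdm5b among them, lay under the minimum level.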

Other observations

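Genes at the distal end of chromosome 15 were lower together with shKdm5b. When tested genes were sorted into windows of 10 Mb, a step added after the data were seen, 202 windows held at least 20 genes, and the median log2 ratio of normalised counts per window had a median of -0.005 and an SD of 0.053. The window from 100 to 110 Mb of chromosome 15 was the lowest, with a median of -0.30 over 35 genes, of which 23 were called lower and 3 higher (65.7% and 8.57%, against 17.4% and 15% of all tested genes). The next lowest window had a median of -0.12 and the highest 0.12. Relative to the shEV mean, the window's median was -0.28, -0.32 and -0.24 in the shKdm5b libraries and 0.03, -0.04 and 0.01 in the shEV libraries, so each shKdm5b library showed it. It ran from -0.32 to -0.28 when 1 library was left out. Windows of 5 Mb gave no separate check, since the lowest of them held the same 35 genes and so the same median. The second lowest window of 5 Mb had a median of -0.22, a smaller gap than with windows of 10 Mb. In the 10 Mb before the chromosome 15 window, 5 of 50 genes were higher and 8 lower, with a median of -0.003. The same 35 genes had a median of -0.05 for UNC1999 against DMSO and 0.06 for WT against EV. Genes in or next to the window, named after their values were seen, were the actin-binding Lima1 just before it (log2 ratio -1.10), the iron importer Slc11a2 (-0.84), the fatty acid receptor gene Gpr84 (831 normalised counts with shKdm5b and 1666 with shEV) and Nckap1l, a WAVE complex subunit of blood cells (-0.55). Slc11a2 also counts in the haem, iron and NRF2 list and Espl1 in the G2 and M phase list. By whole chromosome the medians of the same log2 ratio ran from -0.057 for chromosome 16 to 0.025 for chromosome 6. The cause was not tested.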
